A study of Mus musculus with 4 samples.

Results

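The genes described here are 43 genes of the unfolded protein response and the integrated stress response, measured by RNA-seq in mouse neural stem cells (NSCs) with and without Chd5, which encodes a chromatin remodelling protein. They were taken by name from a table of 18169 rows, and the list was chosen with earlier results of these data known. All 43 were found, each above a mean of 1 TPM (a transcript abundance scaled for length and library size). That minimum put 12576 rows into the test. They fall into 6 roles, with 6 stress sensors and kinases, 6 transcription factors, 11 targets of ATF4, 2 phosphatase subunits, 15 chaperones and folding enzymes of the endoplasmic reticulum (ER), and 3 genes of ER-associated degradation.

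The study compared primary NSCs from 2 +/+ and 2 Chd5-/- mice of the C57BL/6 strain, each culture grown from the periventricular zone of a single newborn brain with EGF and FGF2. The growth protocol gives postnatal day 1 for every culture, but the age entries give days 1 and 2 for +/+ and days 3 and 4 for Chd5-/- replicates 1 and 2, so by those entries age and genotype cannot be told apart. No litter or sex is given, and the labels name no agent that causes ER stress or amino acid shortage. TPM was 0.39 and 0.37 for Chd5 in +/+ cells and 0.06 and 0.04 in Chd5-/- cells, below the minimum for testing. The 10 NSC markers summed to 9908 and 8258 TPM in +/+ cells and to 4026 and 6958 TPM in Chd5-/- replicates 1 and 2, and none was at 0. The neuronal list summed to between 370 and 790 TPM, nearly all of it from a single gene. The astrocyte list summed to between 78.6 and 314 TPM, and the oligodendrocyte lineage to between 498 and 908 TPM. Microglial and endothelial markers stayed below 1 TPM in sum, but only 2 of 5 and 2 of 4 of them had a row. TPM keeps no record of read number, so the depth behind each value is unknown.

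When unfolded proteins collect in the ER, the sensors PERK, IRE1 and ATF6 act through the transcription factors ATF4, XBP1 and cleaved ATF6. PERK shares its substrate, the translation factor eIF2alpha, with other kinases, and their common pathway, the integrated stress response, lowers general translation while ATF4 is made. ATF4 turns on amino acid synthesis and transport, whereas XBP1 and ATF6 turn on chaperones, and in the developing cortex the unfolded protein response is known to influence when progenitors make neurons.

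After correction over all rows, 0 of 43 genes had an adjusted p under 0.05 between genotypes (limma on log2(TPM + 1), smallest Benjamini-Hochberg adjusted p = 0.12), against 0.0557% of all rows. At an unadjusted p under 0.05, 7 of 43 members were higher in Chd5-/- cells (Ddit3, Phgdh, Slc7a11, Ppp1r15a, P4hb, Sdf2l1 and Herpud1), against 21.9% of all rows, and 0 of 43 were lower, against 2.27% of all rows. The members' 7 come to 16.3%, below the share of all rows. The Chd5-/- pair lay wholly above the +/+ pair for 19 members (44.2%, against 46.3% of all rows) and below them for 4, Asns, Dnajb9, Dnajc3 and Ppp1r15b (9.30%, against 13.0%), and the genotypes overlapped for 20. The median log2 difference of the members, Chd5-/- minus +/+, was 0.23, against 0.34 for all rows. This order turned without Chd5-/- replicate 2 (0.48 against 0.33) and with quantile normalization (-0.027 against -0.054), and without Chd5-/- replicate 1 the members were at 0.051 against 0.35. With 2 samples against 2, an exact permutation test of a single gene could not go below p = 0.333.

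**Figure D1:**
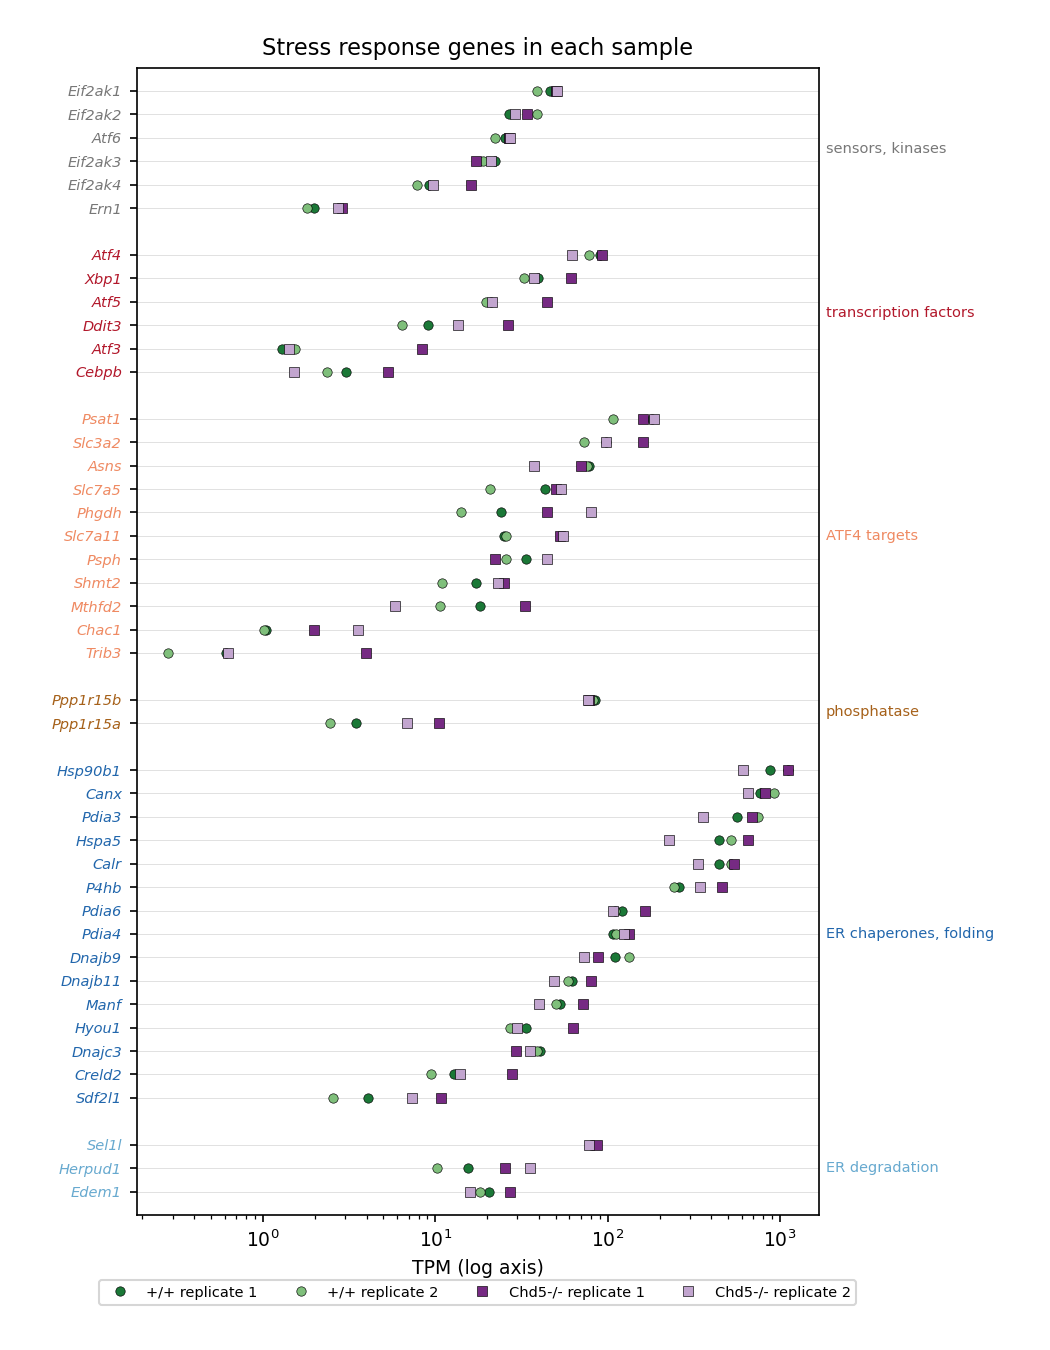
TPM of the 43 genes on a log axis, 1 row per gene grouped by role, with circles for the +/+ samples and squares for the Chd5-/- samples. Chaperones reached the highest levels, and within Chd5-/- cells the darker square (replicate 1) lay to the right of the lighter one (replicate 2) for 32 of 43 genes.

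The sensors and kinases had a median log2 difference of 0.21, against 0.34 for all rows. It was -0.061 with trends of transcript GC content and length removed (all rows -0.021) and -0.16 with median-of-ratios scaling (all rows 0.0052). With quantile normalization it was -0.21 (all rows -0.054). With rescaling without the 20 most abundant rows it was -0.023 (all rows 0.13). The list was thus below all rows in each of these settings. Eif2ak4, which encodes GCN2, the kinase that responds to amino acid shortage, stood at 9.26 and 7.81 TPM in +/+ cells and 16.2 and 9.73 TPM in Chd5-/- cells. Ern1, which encodes IRE1, the enzyme that splices Xbp1 RNA, stood at 1.97 and 1.81 TPM in +/+ cells and 2.86 and 2.73 TPM in Chd5-/- cells. For both genes the Chd5-/- samples were above both +/+ samples, with log2 differences of 0.51 ± 0.34 (SE, adjusted p = 0.392) for Eif2ak4 and 0.39 ± 0.32 (adjusted p = 0.479) for Ern1, neither past the test. At the low end, Eif2ak3, which encodes PERK, had 22.1 and 18.9 TPM in +/+ cells and 17.2 and 20.97 TPM in Chd5-/- cells. Eif2ak2, which encodes the kinase PKR that binds double-stranded RNA, had 26.9 and 39.0 TPM in +/+ cells and 33.9 and 29.0 TPM in Chd5-/- cells. Both overlapped between genotypes, with log2 differences of -0.10 ± 0.26 (adjusted p = 0.83) and -0.046 ± 0.28 (adjusted p = 0.933). Eif2ak1, the haem-regulated kinase, and Atf6 differed by 0.25 and 0.17. None of the 6 passed an unadjusted p of 0.05.

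The transcription factors had a wider spread, and it lay largely inside the Chd5-/- pair. Atf4 stood at 90.5 and 77.7 TPM in +/+ cells and at 92.9 and 62.2 TPM in Chd5-/- cells, so the Chd5-/- samples enclosed both controls, and the log2 difference was -0.14 ± 0.28 (adjusted p = 0.778). ATF4 is controlled chiefly through translation, which RNA levels do not show. Xbp1 stood at 39.45 and 32.6 TPM in +/+ cells and at 61.0 and 37.2 TPM in Chd5-/- cells, where replicate 2 fell between the controls (difference 0.40 ± 0.31, adjusted p = 0.467), and its spliced form cannot be told from the unspliced form in a table by gene name.

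Ddit3, which encodes CHOP, a factor of the late and pro-apoptotic phase of the response, had 9.14 and 6.38 TPM in +/+ cells and 26.4 and 13.6 TPM in Chd5-/- cells. The gene lies on chromosome 10 from 127290774 to 127296288 on the plus strand of GRCm38, where GENCODE M21 lists another entry of the same name within it. The deposited values hold a single row of this name. The annotation behind them is not given, so whether it held that entry is unknown. The Chd5-/- samples were above both controls, with a log2 difference of 1.21 ± 0.40 (adjusted p = 0.168). Atf3, an early factor of many stress responses, had 1.29 and 1.54 TPM in +/+ cells and 8.37 and 1.41 TPM in Chd5-/- cells, so the high value was in replicate 1 alone (difference 0.98 ± 0.68, adjusted p = 0.419). Cebpb, which encodes a partner of CHOP and ATF4, had 3.02 and 2.37 TPM in +/+ cells and 5.29 and 1.52 TPM in Chd5-/- cells, enclosing the controls (difference 0.11 ± 0.52, adjusted p = 0.909). Atf5 differed by 0.57, with 44.4 TPM in Chd5-/- replicate 1 and between 19.8 and 21.4 TPM in the other 3 samples. The median of the 6 factors was 0.49, and only Ddit3 had an unadjusted p under 0.05. That median was -0.27 with GC and length trends removed, 0.025 without Chd5-/- replicate 1 and 0.93 without Chd5-/- replicate 2. The medians of all rows were then -0.021, 0.35 and 0.33.

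The ATF4 targets had a median log2 difference of 0.76 over 11 genes, against 0.34 for all rows, and single targets lay on both sides of 0. The Chd5-/- pair lay above both controls for 7 (63.6%, against 46.3% of all rows), below for 1 (9.09%, against 13.0%) and overlapped them for 3. With trends of transcript GC content and length removed the median was -0.15, against -0.021 for all rows. As deposited, 2 of the 11 were higher at an unadjusted p under 0.05 (18.2%, against 21.9% of all rows).

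Phgdh, which encodes the first enzyme of serine synthesis, had 24.0 and 14.1 TPM in +/+ cells and 44.7 and 80.2 TPM in Chd5-/- cells. It lies on chromosome 3 from 98313170 to 98339990, minus strand. In Chd5-/- cells both values were above the controls, here with replicate 2 the higher, and the log2 difference of 1.65 ± 0.40 was the largest of all 43 genes as deposited (adjusted p = 0.126). Slc7a11, which encodes the cystine importer xCT, had 25.0 and 25.7 TPM in +/+ cells and 52.7 and 54.9 TPM in Chd5-/- cells. It lies on chromosome 3 from 49892526 to 50443614, minus strand. The samples of each genotype lay close together and the genotypes were well apart. The difference was 1.05 ± 0.21 on the log2 scale and had, as deposited, the smallest p of the members (adjusted p = 0.12). Its moderated error draws on other rows and is larger than the spread of these samples.

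Among the other enzymes of the serine and one-carbon route, Shmt2 had both Chd5-/- samples above the controls, as Phgdh did, while the others overlapped. Psat1 and Psph, which encode the next enzymes of serine synthesis, overlapped between genotypes, with differences of 0.31 and 0.10. Psph had 33.6 and 25.7 TPM in +/+ cells and 22.3 and 44.2 TPM in Chd5-/- cells (difference 0.10 ± 0.39, adjusted p = 0.896). Shmt2, a mitochondrial serine enzyme, had 17.3 and 10.9 TPM in +/+ cells and 25.1 and 23.1 TPM in Chd5-/- cells, without passing the test (0.76 ± 0.30, adjusted p = 0.21). Mthfd2, which encodes a mitochondrial folate enzyme, had 18.1 and 10.6 TPM in +/+ cells and 33.3 and 5.88 TPM in Chd5-/- cells. The Chd5-/- samples enclosed the controls, and its difference of 0.045 ± 0.79 had the largest error of the members (adjusted p = 0.977).

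Asns, which encodes asparagine synthetase, stood at 78.1 and 75.8 TPM in +/+ cells and at 70.4 and 37.4 TPM in Chd5-/- cells. These Chd5-/- values were below both controls, the opposite order to Phgdh, with a difference of -0.57 ± 0.35 (adjusted p = 0.357). Chac1, which encodes an enzyme that degrades glutathione, had 1.05 and 1.02 TPM in +/+ cells and 1.98 and 3.56 TPM in Chd5-/- cells (0.86 ± 0.38, adjusted p = 0.242). Trib3, a feedback inhibitor of ATF4, had 0.61 and 0.28 TPM in +/+ cells and 3.97 and 0.63 TPM in Chd5-/- cells (0.99 ± 0.61, adjusted p = 0.37). Both were above the controls at low levels, Trib3 barely so in replicate 2. The transporter genes Slc7a5 and Slc3a2 differed by 0.77 and 0.57, each with both Chd5-/- samples above the controls.

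Some of these genes carry the letters of the C/EBP-ATF response element (CARE), the composite site that ATF4 dimers are known to bind. TGATGNAA was searched on both strands of RefSeq windows from 250 bases before to 50 bases after the gene start (GRCm38.p6), which were given for 38 of 43 members. The letters occurred in 3.97% of 32851 windows, in 4 of the 10 ATF4 targets with a window, and in Atf3 and Herpud1. The sites of the 4 targets are printed because these genes ranged from lowest to near the highest of their list. That of Trib3 lies from base 15 of the gene on the gene strand, by the RefSeq start. By GENCODE M21 this minus-strand gene starts at 152344032, so there the letters lie before it. Capitals mark the motif, read on the strand named, and the stretches of the Slc7a11 pair overlap.
Asns (chr6:7693215-7693242, minus strand): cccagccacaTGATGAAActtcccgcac
Chac1 (chr2:119351039-119351066, minus strand): ctggcaggagTGATGCAAcggcagggaa
Slc7a11, nearer site (chr3:50443643-50443670, plus strand): ggctgcatgaTGATGCAAattctccagg
Slc7a11, farther site (chr3:50443662-50443689, minus strand): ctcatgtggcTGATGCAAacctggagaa
Trib3 (chr2:152344029-152344056, plus strand): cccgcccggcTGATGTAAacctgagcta

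The 6 members with these letters had log2 differences from -0.57 (Asns) to 1.19 (Herpud1), with 4 above both controls, 1 below and 1 overlapping (46.3% and 13.0% of all rows were above and below). A match is a description of the letters in this window and not a measured binding site.

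The phosphatase subunits, which bring protein phosphatase 1 to eIF2alpha and so end the response, are encoded by 2 members. Ppp1r15a, which encodes the stress-induced subunit GADD34, had 3.46 and 2.44 TPM in +/+ cells and 10.5 and 6.90 TPM in Chd5-/- cells. It lies on chromosome 7 from 45522916 to 45526268, minus strand. The genotypes did not overlap, with a difference of 1.28 ± 0.35 (adjusted p = 0.134). Ppp1r15b, the constitutive subunit, lay between 77.2 and 84.7 TPM in all samples, slightly lower in Chd5-/- cells (-0.10).

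**Figure D2:**
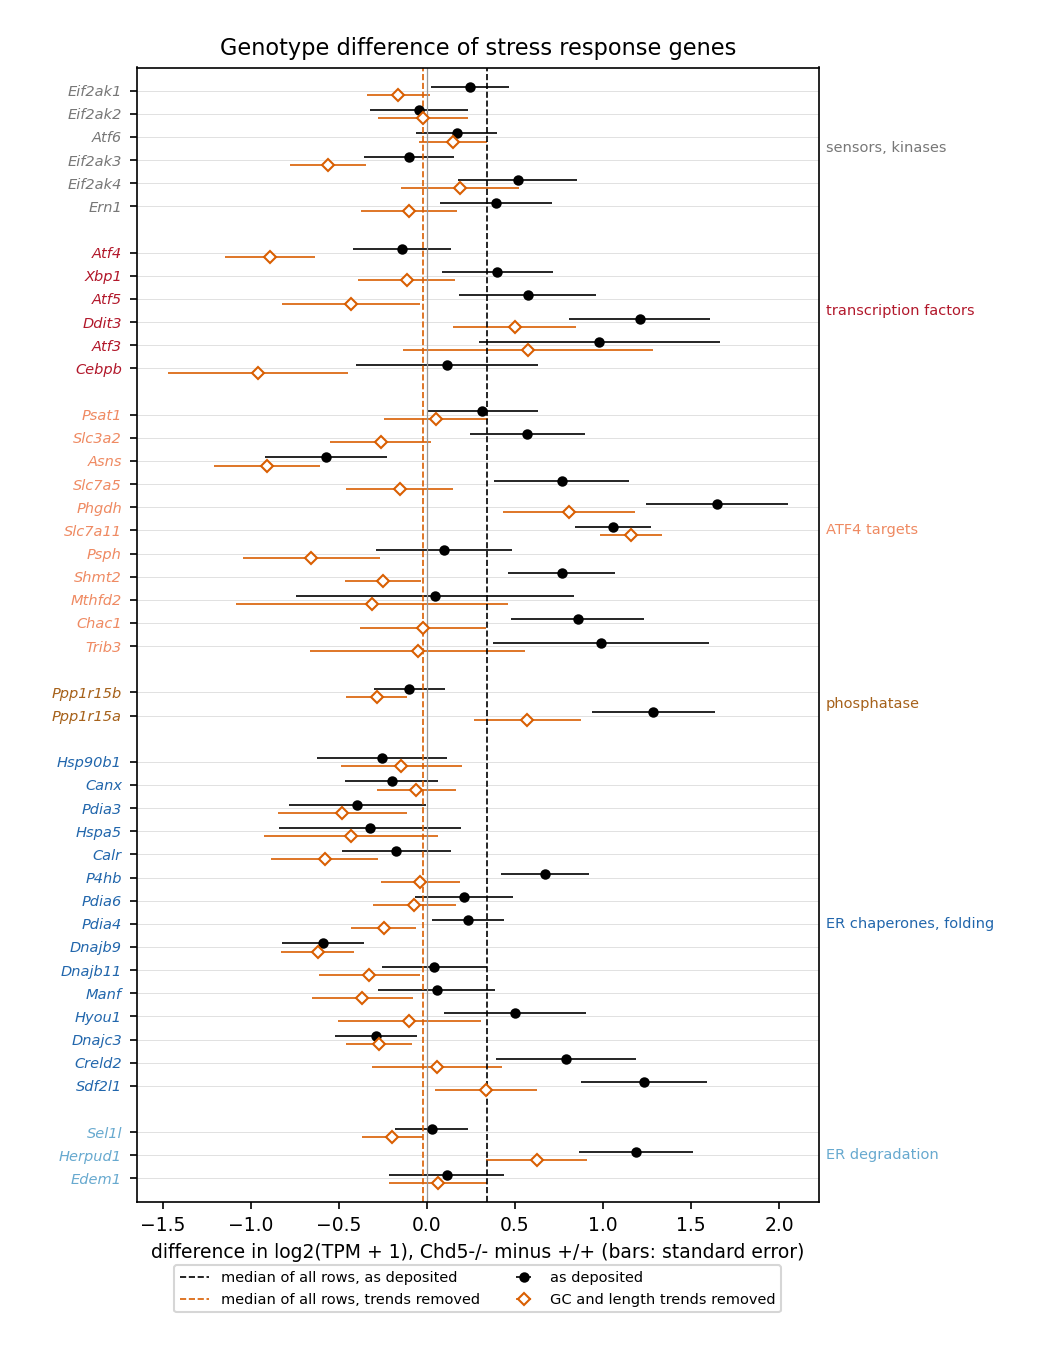
Difference in log2(TPM + 1), Chd5-/- minus +/+, for the 43 genes with bars for the standard error, as deposited (black) and after removal of trends with transcript GC content and length (orange), and dashed lines at the medians of all rows (0.34 and -0.021). Most black points of the ER chaperones sit left of the black line, while Phgdh, Ppp1r15a, Sdf2l1, Ddit3 and Herpud1 sit furthest right, and of these 5 each orange point is to the left of the black one.

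The ER chaperones and folding enzymes were the most abundant group and had a median near 0. Their median log2 difference was 0.043 over 15 genes, against 0.34 for all rows, with 4 genes above both controls (26.7%, against 46.3% of all rows), 2 below (13.3%, against 13.0%) and 9 overlapping. The median was -0.32 under median-of-ratios scaling, against 0.0052 for all rows. Hspa5, which encodes BiP, the main ER chaperone and the gene most often read as a measure of ER stress, had 445 and 522 TPM in +/+ cells and 649 and 228.5 TPM in Chd5-/- cells. The Chd5-/- samples enclosed both controls, and the difference was -0.32 ± 0.52 (adjusted p = 0.722). Hsp90b1, which encodes GRP94, likewise had 876 and 1107 TPM in +/+ cells and 1112 and 611 TPM in Chd5-/- cells. Pdia3, which encodes a disulfide isomerase acting on glycoproteins, had 564 and 749 TPM in +/+ cells and 686 and 356 TPM in Chd5-/- cells, with replicate 1 between the controls and replicate 2 below them (-0.39 ± 0.39, adjusted p = 0.558).

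At the upper end of the group stood Sdf2l1, which encodes a partner of BiP and ER DnaJ proteins, with 4.05 and 2.54 TPM in +/+ cells and 10.8 and 7.35 TPM in Chd5-/- cells. It lies on chromosome 16 from 17130138 to 17132383, minus strand. Its Chd5-/- values were above the controls, with a difference of 1.23 ± 0.36 (adjusted p = 0.146). Creld2, a secreted ER stress gene with disulfide isomerase activity, had 12.8 and 9.50 TPM in +/+ cells and 27.9 and 14.0 TPM in Chd5-/- cells (0.79 ± 0.40, adjusted p = 0.29). P4hb, which encodes protein disulfide isomerase itself, had 258 and 242 TPM in +/+ cells and 463 and 342 TPM in Chd5-/- cells. It lies on chromosome 11 from 120560298 to 120573253, minus strand, and gave 0.67 ± 0.25 (adjusted p = 0.192), again above both controls.

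At the lower end, Dnajb9, which encodes ERdj4, a known target of XBP1, had 110 and 132 TPM in +/+ cells and 87.6 and 72.6 TPM in Chd5-/- cells. The Chd5-/- values were below the controls, with a difference of -0.59 ± 0.23 (adjusted p = 0.209). The other 8 genes of the group differed by between -0.29 (Dnajc3) and 0.50 (Hyou1).

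The ER stress response element (ERSE), the letters CCAAT followed by CCACG, is the site at which ATF6 and the factor NF-Y are known to act. With any 9 bases between and on both strands, it was in 0.119% of the 32851 windows and in 7 of the 13 members of this group with a window (Calr, Canx, Creld2, Dnajc3, Hsp90b1, Hspa5 and Pdia6), and in no window of the other roles. The shorter form ERSE-II, ATTGG and CCACG with any 1 base between, which shares the letters CCACG with it, was in 0.0365% of windows, among them Dnajb11 and Herpud1, neither of which held the longer form. The UPRE core TGACGTGG was in 0.676% of windows and in none of a member. Sites are printed for the highest (Creld2) and the lowest (Hspa5) of the 7 by genotype difference, for Dnajc3, which alone among the chaperones was higher in Chd5-/- replicate 2 than in replicate 1, and for Herpud1, whose window held both ERSE-II and CARE letters. Capitals mark the motif.
Hspa5 ERSE (chr2:34772020-34772048, plus strand): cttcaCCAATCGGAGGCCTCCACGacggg
Creld2 ERSE (chr15:88819515-88819543, minus strand): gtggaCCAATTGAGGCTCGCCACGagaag
Dnajc3 ERSE (chr14:118937822-118937850, plus strand): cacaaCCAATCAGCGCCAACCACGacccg
Herpud1 ERSE-II (chr8:94386368-94386396, plus strand): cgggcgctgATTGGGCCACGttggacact
Herpud1 CARE (chr8:94386307-94386334, minus strand): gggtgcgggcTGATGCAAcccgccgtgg

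The 7 genes with the ERSE letters differed between genotypes by between -0.32 (Hspa5) and 0.79 (Creld2), with 1 above both controls, 1 below and 5 overlapping (46.3% and 13.0% of all rows were above and below).

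Of the 3 genes of ER-associated degradation, Herpud1, which encodes a membrane protein of the degradation complex, had 15.6 and 10.2 TPM in +/+ cells and 25.3 and 35.5 TPM in Chd5-/- cells. It lies on chromosome 8 from 94386438 to 94395377, plus strand. As for Phgdh, both Chd5-/- values were above the controls with replicate 2 the higher, and the difference was 1.19 ± 0.32 (adjusted p = 0.135). Sel1l, a scaffold of the same complex, and Edem1, which sorts misfolded glycoproteins, overlapped between genotypes, with differences of 0.027 and 0.11.

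The widest differences of several members lay between the 2 Chd5-/- cultures, a pattern that was noticed in the data and is given without a test. Replicate 1 was above replicate 2 for 32 of 43 members, for 14 of 15 chaperones and folding enzymes (the exception was Dnajc3) and for 6 of 6 transcription factors, against 49.8% of all rows, but for 5 of 11 ATF4 targets. The median log2 difference, replicate 1 minus replicate 2, was 0.68 for the chaperones, 0.96 for the transcription factors and -0.060 for the ATF4 targets, with -0.0021 over all rows. Replicate 1 was at least 2-fold above replicate 2 on the TPM + 1 scale for 7 of 43 members, against 8.87% of all rows, and the reverse was seen for 0 of 43, against 8.00%.

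Chd5-/- replicate 1 was above and replicate 2 below both +/+ samples for 11 of 43 members, against 9.03% of all rows, and 6 of these were chaperones. The 15 chaperones and folding enzymes summed to 3896 and 4611 TPM in +/+ cells and to 4936 and 3011 TPM in Chd5-/- replicates 1 and 2, so the control sums fell between them. Of the 7 genes with ERSE letters, 6 were higher in replicate 1. In +/+ cells, replicate 1 was above replicate 2 for 33 of 43 members, but by less, with a median of 0.17 against 0.14 for all rows. By role, +/+ replicate 1 was the higher for 8 of 15 chaperones, 5 of 6 transcription factors and 10 of 11 ATF4 targets. Their medians were 0.043, 0.24 and 0.42, against 0.14 for all rows. The transcription factors thus leaned to replicate 1 in both genotypes, but in +/+ cells the median of all rows did too. The share of all rows with +/+ replicate 1 higher was not computed. A 2-fold excess of +/+ replicate 1 was seen for 1 of 43 members (Slc7a5), against 2.08% of all rows, and of +/+ replicate 2 for 0 of 43, against 1.97%.

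**Figure D3:**
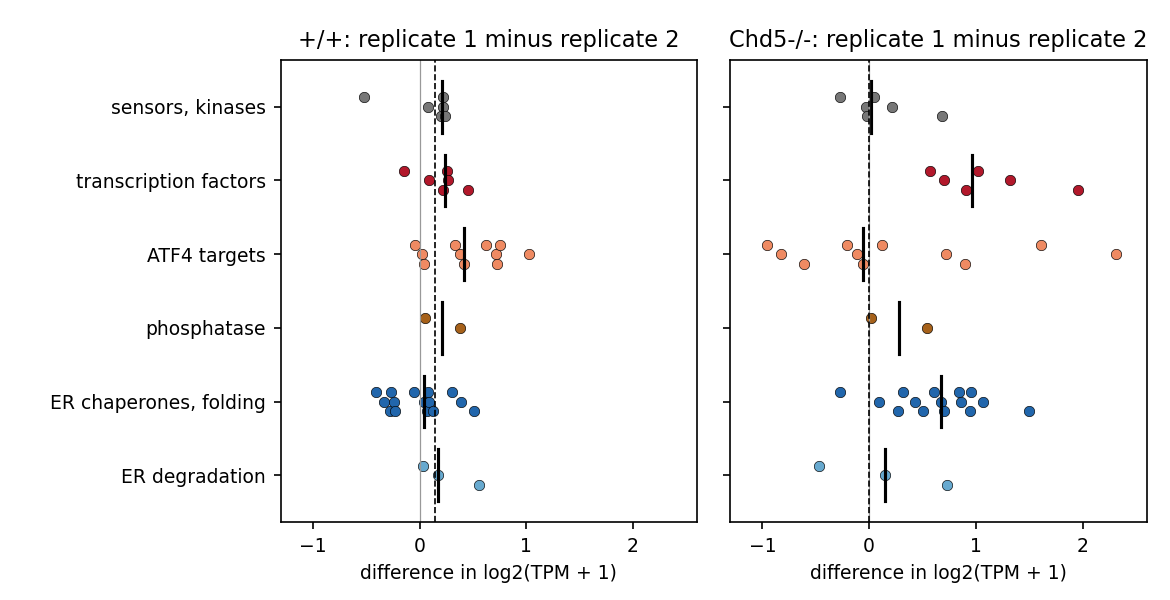
Difference in log2(TPM + 1) between replicate 1 and replicate 2 within +/+ cells (left) and within Chd5-/- cells (right), 1 point per gene and 1 row per role, with black bars for the role medians and a dashed line for the median of all rows. In Chd5-/- cells 14 of 15 chaperones and 6 of 6 transcription factors lie right of 0, while the ATF4 targets spread to both sides. In +/+ cells 8 of 15 chaperones, 5 of 6 transcription factors and 10 of 11 ATF4 targets lie right of 0. There the median of all rows is at 0.14.

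The Chd5-/- pair differed in other genes as well. NSC markers summed to 4026 TPM in replicate 1 and 6958 TPM in replicate 2, a sum that rests largely on the abundant Fabp7 (1939 and 3822 TPM), and 2 of the 10 were higher in replicate 1, Nes (94.7 and 60.9 TPM) and Prom1 (45.3 and 3.20 TPM). The neuronal list summed to 370 and 790 TPM in replicates 1 and 2, the astrocyte list to 111 and 314 TPM and the oligodendrocyte lineage to 498 and 908 TPM, all lower in replicate 1. Nearly all of the neuronal sum came from a single gene with a mean of 542 TPM. Only 2 of the 6 neuronal genes reached the minimum for testing. The oligodendrocyte sum rests largely on a gene with a mean of 451 TPM. The mesenchymal list summed to 4.82 TPM in replicate 1 against at most 0.17 TPM in the other samples. Of its 5 genes, 1 reached the minimum for testing, with a mean of 1.06 TPM. Further genes chosen after their values were seen were Ero1l, which encodes an ER oxidase that is also known to respond to low oxygen, at 189 and 322 TPM in +/+ cells and 1864 and 96.9 TPM in Chd5-/- cells, and Nupr1, a stress-induced nuclear protein gene, at 15.1 and 15.3 TPM in +/+ cells and 91.8 and 12.7 TPM in Chd5-/- cells. Cytosolic aminoacyl-tRNA synthetases and the cytosolic and mitochondrial chaperones, 2 lists outside the ER, were also higher in replicate 1, for 19 of 20 and 22 of 23 genes. This order was not particular to the Chd5-/- pair. In +/+ cells replicate 1 was the higher for 19 of 20 and 20 of 23, a share not computed for all rows. The median log2 differences were 0.57 and 0.56 in Chd5-/- cells (-0.0021 for all rows) and 0.26 and 0.18 in +/+ cells (0.14 for all rows). The part of any of these in the members' values was not tested, and in bulk RNA fewer cells of a type and less RNA per cell cannot be told apart.

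The calls depended on these samples. Without Chd5-/- replicate 1, 4 members had an adjusted p under 0.05, against 9.92% of all rows, with Phgdh (2.06) and Slc7a11 (1.08) higher and Asns (-1.02) and Hspa5 (-1.07) lower. Without Chd5-/- replicate 2, 2 members did, against 8.64% of all rows, and they were Atf3 (1.96) and Trib3 (1.79). Hspa5 was then at 0.43, the opposite direction. In each such fit the lone Chd5-/- sample was assumed to vary like the +/+ pair. The count higher at an unadjusted p under 0.05 was 16 without Chd5-/- replicate 2, against 25.9% of all rows, and 1 (Slc7a11) without +/+ replicate 2, against 5.75%. Slc7a11 stayed between 1.03 and 1.08 whichever sample was left out of the deposited values. With all samples it was 0.69 with median-of-ratios scaling. Its difference was 0.82 both with quantile normalization and with rescaling without the 20 most abundant rows. The chaperone median was -0.31 without Chd5-/- replicate 1 and 0.39 without Chd5-/- replicate 2, and the ATF4 target median was 0.36 without +/+ replicate 2. The medians of all rows in these fits were 0.35, 0.33 and 0.26.

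Transcript GC content went with the genotype difference. Over the 43 members the log2 difference and GC content had a Spearman rho of 0.62, and over 11945 rows 0.60, points that share the same 4 libraries. Median GC content was 55.3% for the ATF4 targets and 50.2% for the chaperones, against 50.3% for all rows. Slc7a11, at 41.9% GC, stood far above the median of -0.22 for the lowest of 10 equal bins of rows by GC content, while Asns, Dnajb9, Atf4 and Cebpb stood below that of rows like them. The difference between Chd5-/- replicates had a rho of 0.079 with GC content over the members, and after removal of the GC and length trends replicate 1 was still above replicate 2 for 14 of 15 chaperones. The part of GC content in the members' values was not tested beyond the removal of these trends.

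With GC and length trends removed, the median of the 43 members was -0.145, against -0.021 for all rows. Of the 43, 12 were above 0. The chaperone median was -0.24, and the ATF4 targets turned direction to the -0.15 given above. No member had an adjusted p under 0.05, against 0.0330% of all rows. At an unadjusted p under 0.05, 1 member was then higher, Slc7a11 (1.16, adjusted p = 0.367), against 4.96% of all rows. By the same rule 3 were lower, Atf4 (-0.89, adjusted p = 0.411), Asns (-0.91, adjusted p = 0.427) and Dnajb9 (-0.62, adjusted p = 0.429), against 6.30%. Phgdh (0.81), Ppp1r15a (0.57), Herpud1 (0.62), Ddit3 (0.50) and Sdf2l1 (0.33) no longer had such a p, and P4hb was at -0.038. Median-of-ratios scaling, which moved the median of all rows from 0.34 to 0.0052, left the ATF4 targets at 0.40.

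**Figure D4:**
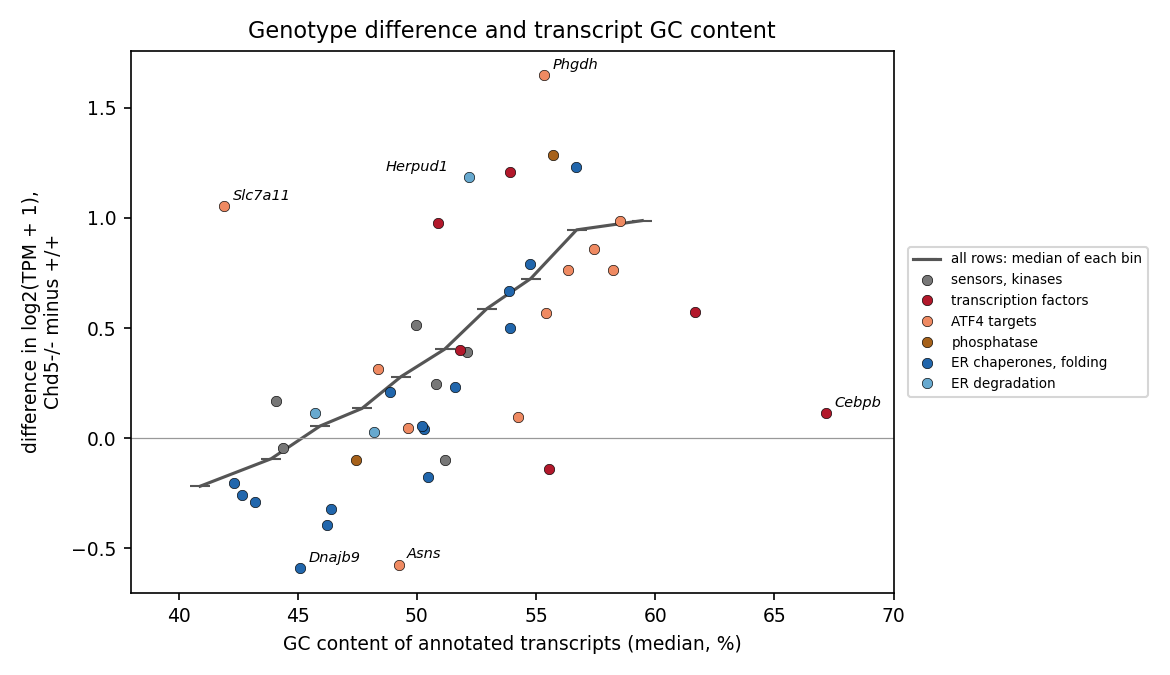
Difference in log2(TPM + 1), Chd5-/- minus +/+, against transcript GC content (median over annotated transcripts, %), with 1 point per member coloured by role and a line through the medians of all rows in 10 equal bins of GC content. The line climbs from -0.22 to 0.99 and the members rise with it. Slc7a11 lies high above it at low GC while Asns and Cebpb lie below it. With GC and length trends removed the members' median was -0.145, against -0.021 for all rows.

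The rest of the pathway was read from 4 further lists with 71 genes tested. At an unadjusted p under 0.05, 18 were higher in Chd5-/- cells, against 21.9% of all rows, and 1 was lower, against 2.27%, and none had an adjusted p under 0.05. With GC and length trends removed, 5 were higher, against 4.96% of all rows, and 3 lower, against 6.30%, and the median of the 71 went from 0.47 to -0.059. Among 14 genes of eIF2, its exchange factor eIF2B and kinase cofactors, 3 were higher (21.4%, against 21.9% of all rows). Their median was 0.066 (-0.096 with trends removed). Eif2b2 (1.47 ± 0.31, adjusted p = 0.12) and Eif2b4 (1.06 ± 0.36, adjusted p = 0.171), subunits of eIF2B, were the highest, whereas Eif2s1 and Eif2s2, which encode the alpha and beta subunits of eIF2, were the lowest at -0.58 and -0.40. Among 7 genes that process ATF6 or act with IRE1, 3 were higher (42.9%, against 21.9% of all rows). With trends removed 1 was higher (against 4.96%), and the median went from 0.65 to 0.081. Creb3 (0.97), a membrane-bound factor related to ATF6, and Rtcb (0.89), the ligase that joins spliced Xbp1 RNA, were at the top. Mbtps2, the protease that cleaves ATF6, was lowest at -0.64, and Atf6b was next at 0.62.

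Of 19 further ATF4 targets tested, 4 were higher (21.1%, against 21.9% of all rows) and 0 lower (against 2.27%). Their median was 0.69, against 0.34 for all rows. With trends removed 2 were higher (against 4.96% of all rows) and the median turned to -0.086 (against -0.021). Sesn2 had 6.02 and 4.85 TPM in +/+ cells and 23.4 and 12.6 TPM in Chd5-/- cells (1.505 ± 0.38, adjusted p = 0.128), and Ddit4 had 45.8 and 30.9 TPM and 77.8 and 128 TPM (1.39 ± 0.35, adjusted p = 0.128). Both encode inhibitors of mTORC1 signalling, and for both all Chd5-/- samples were above the controls. Slc7a1 and Stc2 were lowest at -0.33 and -0.21. Of 31 further ER folding and degradation genes, 8 were higher (25.8%, against 21.9% of all rows) and 1 lower (against 2.27%), with a median of 0.21. With trends removed 2 were higher (against 4.96%), 3 lower (against 6.30%) and the median was -0.053. Prkcsh, which encodes a glucosidase II subunit, had 26.3 and 21.9 TPM in +/+ cells and 66.0 and 66.9 TPM in Chd5-/- cells (1.43 ± 0.23, adjusted p = 0.12). Derl3 (1.58, adjusted p = 0.245) was at or below 0.06 TPM in +/+ cells, and Erlec1 (-0.69, adjusted p = 0.177) and Edem3 (-0.47) were lowest. Of the 2 lists outside the ER, the aminoacyl-tRNA synthetases had 4 of 20 genes higher (20%, against 21.9% of all rows) and a median of 0.31. The cytosolic and mitochondrial chaperones had 0 of 23 called in either direction (against 21.9% higher and 2.27% lower) and a median of 0.072.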

How the data were processed

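RNA-seq of 4 primary NSC cultures, 2 per genotype, was analysed, from stranded libraries of polyadenylated RNA. The submitters' processing notes name Bowtie2 2.2.3, RSEM 1.2.20 and the mm10 build, and the gene annotation is not given in the sources used here. The authors deposited 1 table of TPM values, which were used as deposited, without a count test. Since TPM sums to a fixed total, abundant rows move the others: the 20 rows of highest mean held 32.4% and 35.6% of TPM in +/+ cells and 21.6% and 22.8% in Chd5-/- cells.

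Rows whose mean reached 1 TPM were put on the log2(TPM + 1) scale and fitted in R 4.3.3 with limma 3.58.1 (two-sided, moderated with a trend), with Benjamini-Hochberg adjustment over all 12576 rows. A difference on this scale understates the change of low genes. The p-values and standard errors rest on the spread between 2 cultures per genotype, moderated towards the trend over all rows, so they also reflect the spread of other rows. The scripts were tested on simulated data.

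The members and gene lists were chosen with earlier results of these data known. Named were members with an unadjusted p under 0.05, the 2 highest and 2 lowest of each list with at least 6 genes, and Atf4, Ddit3, Xbp1, Hspa5, Asns, Trib3 and Chac1. Other genes named with values were chosen after those values were seen. GC content, length and gene positions came from GENCODE M21 (GRCm38), found for 96.3% of tested rows, and trends were removed by loess (span 0.5) on each sample's difference from the row mean. Promoter windows came from RefSeq (GRCm38.p6). Python 3.11.15 with numpy 2.4.6, pandas 2.3.3 and matplotlib 3.10.9 made the tables and figures. The alternatives changed the pseudocount (0.1 or 5), the minimum (none or 10 TPM), the scaling, the variance moderation or the ATF4 list, added the replicate number as a block, or left out a sample.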

Additional observations from a re-analysis of the deposited data

How the results depend on the processing

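The count of members past an adjusted p of 0.05 was 0 with all 4 samples under each alternative, and between 0 and 4 when a sample was left out. The count higher at an unadjusted p under 0.05 (7) was 3 with quantile normalization, 1 after removal of the GC and length trends, also 1 with the replicate block on top, and between 1 and 16 with a sample left out. The count lower (0) was 1 with a pseudocount of 5, with no minimum, with quantile normalization and with rescaling without the 20 most abundant rows, 3 with median-of-ratios scaling, 3 after trend removal, 2 with the replicate block as well, and between 0 and 14 with a sample left out (6 without Chd5-/- replicate 1, as deposited). Beside these counts, 4.96% of all rows were higher and 6.30% lower after trend removal, against 21.9% and 2.27% as deposited. For fits with a sample left out, only the shares given above were computed. No share was computed for the other settings, so those counts cannot be told from a change common to all rows. The ATF4 target median (0.76) was 0.38 with a pseudocount of 5, 0.40 with median-of-ratios scaling, 0.36 with quantile normalization and 0.53 with rescaling. It was -0.15 after trend removal with or without the replicate block, and between -0.33 and 0.87 with a sample left out. The chaperone median (0.043) was -0.32 with median-of-ratios scaling and between -0.54 and 0.39 with a sample left out. The median of all rows (0.34) was 0.24 with a pseudocount of 5 and 0.0052 with median-of-ratios scaling. It was -0.054 with quantile normalization, 0.13 with rescaling and -0.021 after trend removal.

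Single genes turned direction under GC and length removal, with or without the block (Atf5 -0.43, Cebpb -0.96, Chac1 -0.022, Dnajb11 -0.33, Eif2ak1 -0.16, Ern1 -0.10, Hyou1 -0.10, Manf -0.37, Mthfd2 -0.31, P4hb -0.038, Pdia4 -0.24, Pdia6 -0.071, Psph -0.66, Sel1l -0.20, Shmt2 -0.25, Slc3a2 -0.26, Slc7a5 -0.15, Trib3 -0.052, Xbp1 -0.12, Atf6b -0.55), under median-of-ratios scaling (Atf6 -0.19, Cebpb -0.15, Dnajb11 -0.32, Edem1 -0.24, Eif2ak1 -0.12, Manf -0.31, Mthfd2 -0.30, Pdia4 -0.14, Pdia6 -0.16, Psat1 -0.057, Psph -0.27, Sel1l -0.34), under quantile normalization (Atf6 -0.15, Cebpb -0.52, Dnajb11 -0.11, Edem1 -0.27, Eif2ak4 -0.027, Ern1 -0.27, Manf -0.13, Mthfd2 -0.42, Psph -0.20, Sel1l -0.087) and under rescaling (Atf6 -0.060, Cebpb -0.059, Dnajb11 -0.19, Edem1 -0.11, Manf -0.18, Mthfd2 -0.17, Pdia4 -0.0027, Pdia6 -0.026, Psph -0.13, Sel1l -0.21). With a sample left out, as deposited or with trends removed, these genes spanned 0: Atf3 (-0.41 to 1.96), Atf4 (-1.17 to 0.15), Atf5 (-0.94 to 1.08), Calr (-0.88 to 0.16), Canx (-0.36 to 0.076), Cebpb (-1.62 to 0.77), Chac1 (-0.33 to 1.16), Creld2 (-0.41 to 1.27), Dnajb11 (-0.68 to 0.39), Edem1 (-0.25 to 0.48), Eif2ak1 (-0.22 to 0.37), Eif2ak2 (-0.31 to 0.26), Eif2ak3 (-0.73 to 0.037), Eif2ak4 (-0.21 to 0.85), Ern1 (-0.14 to 0.43), Hsp90b1 (-0.69 to 0.25), Hspa5 (-1.11 to 0.43), Hyou1 (-0.65 to 1.03), Manf (-0.71 to 0.47), Mthfd2 (-1.403 to 1.204), P4hb (-0.23 to 0.89), Pdia3 (-0.89 to 0.078), Pdia4 (-0.35 to 0.28), Pdia6 (-0.32 to 0.51), Psat1 (-0.26 to 0.69), Psph (-1.17 to 0.57), Sel1l (-0.26 to 0.10), Shmt2 (-0.40 to 1.07), Slc3a2 (-0.60 to 0.93), Slc7a5 (-0.52 to 1.28), Trib3 (-0.84 to 1.79), Xbp1 (-0.44 to 0.75), Eif2s2 (-0.80 to 0.14), Eif2b4 (-0.082 to 1.401), Atf6b (-0.66 to 0.88), Slc7a1 (-1.57 to 0.39), Stc2 (-0.90 to 0.48) and Derl3 (-0.45 to 2.57). Median-of-ratios scaling and rescaling divide each sample by 1 factor, so they move rows well above 1 TPM by a similar amount. The median of all rows went from 0.34 to 0.0052 and 0.13 under them. A turned sign under these settings thus marks a shift shared by the rows. The causes of the other turns were not tested.

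Replicate deviations of the genotypes had a Pearson r of -0.15 across rows, and the labels share only a number. With the replicate number as a block, 6 members were higher, 0 lower and 0 past the adjusted threshold. The crossed pairing and the trend removal with a sample left out were chosen after seeing the data, and the crossed pairing also gave 6, 0 and 0. The share of all rows was not computed for either pairing.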
